A study of Mus musculus with 4 samples.

Results

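Cdkn2a and Cdkn2b are neighbouring genes that hold cells in check, and DNA methylation was followed across both of them in mouse embryonic fibroblasts (MEFs) entering reprogramming. The CpGs described here were those on chromosome 4 of mm9, in a window around both genes, with at least 10 reads in each of 4 libraries. There were 121 of them, lying from 88918212 to 88957084, of 268 listed in the window in any library and of 1045368 with that coverage in the whole genome. Reads came from reduced representation bisulfite sequencing (RRBS), in which the enzyme MspI cuts DNA at CCGG, short fragments are kept, and bisulfite turns unmethylated cytosines into bases read as T.

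All 4 libraries were made from secondary, inducible MEFs of a 129/SvJ x C57/B6 hybrid, cells that carry reprogramming factors switched on by doxycycline. The control library came from uninduced cells, which carry the same factors. The other libraries came from cells kept in doxycycline for 96 hours, which had on average divided 0 times (0-division, here the undivided library), 1 time (1-division) or >3 times (>3-division, here the most-divided library); the labels call the last cohort >3 in one place and 3 or more in another. Serum was 10% in growth medium, 15% in the medium with doxycycline and 0.5% in a starvation medium that the labels tie to no cohort, so induction, serum and division cannot be told apart. Which promoter drives the factors and whether embryos were pooled is not given in the sources used here, and methylation alone could not check the labelled cell type against marker genes. Each group had 1 library, so no value has a replicate check, and each test below compares a pair of libraries, not conditions.

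As background, Cdkn2a makes a pair of unrelated proteins from separate first exons. p16Ink4a and the Cdkn2b product p15Ink4b block the cyclin D kinases Cdk4 and Cdk6, which keeps Rb active and stops the cell cycle, while p19Arf binds Mdm2 and so stabilises p53. In fibroblasts the locus is held down by Polycomb proteins such as Bmi1 and is turned on as cultures age, and its silencing is known to make reprogramming more efficient.

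RefSeq's promoter table (GRCm38.p6) held both genes, with 3 sequences of 300 bases, each from 250 bases before to 50 after a transcription start, all on the minus strand. They were placed among the deposited mm9 positions by the spacing of their CpGs alone. The sequence at the upstream start of Cdkn2a, which serves p19Arf, had 45 CpGs, and all 45 coincided with listed CpGs at chr4:88940473-88940772, where the next best place in the genome had 7. The Cdkn2b sequence coincided at 13 CpGs at chr4:88956891-88957190, against 5 at the next best place. They are shown because they carry the main observation, that the tested CpGs at both starts had low methylation in every library. Capitals mark the CpGs tested here, 21 in the first and 4 in the other:
Cdkn2a, Arf start: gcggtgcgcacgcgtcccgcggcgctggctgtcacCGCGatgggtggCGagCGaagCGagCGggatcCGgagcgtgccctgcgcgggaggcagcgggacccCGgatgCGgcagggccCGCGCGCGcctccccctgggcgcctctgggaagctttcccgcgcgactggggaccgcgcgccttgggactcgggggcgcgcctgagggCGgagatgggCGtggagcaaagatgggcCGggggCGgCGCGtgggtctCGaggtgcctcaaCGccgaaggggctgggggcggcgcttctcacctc
Cdkn2b: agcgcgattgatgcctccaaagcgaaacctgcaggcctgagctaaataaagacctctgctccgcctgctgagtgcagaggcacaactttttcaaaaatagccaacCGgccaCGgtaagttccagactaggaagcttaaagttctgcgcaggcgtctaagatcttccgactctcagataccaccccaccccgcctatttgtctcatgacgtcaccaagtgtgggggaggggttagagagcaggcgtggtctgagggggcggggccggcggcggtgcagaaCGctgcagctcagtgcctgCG

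The first sequence is among the most CpG-rich of its kind: 1.93% of the 32851 promoter sequences of that length held at least 45 CpGs. At least 18 CpGs, the number in the Cdkn2b sequence, were held by 29.7%. The placed starts lay at 88940522 and 88956940, 16418 bp apart, and both genes read towards lower positions.

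The tested CpGs of both promoters were low in all libraries. Over the 21 CpGs of the Arf promoter the mean methylation level (methylated reads over all reads, in percent) was 1.19% in uninduced cells, 2.07% in the undivided, 1.25% in the 1-division and 0.42% in the most-divided library. These means give each CpG equal weight. By summed reads, 23 of 1583 were methylated in uninduced cells and 22 of 1868 in the undivided library. The 1-division library had 17 of 1578 and the most-divided 17 of 3670, so by summed reads the undivided library was not above uninduced cells. The 4 tested CpGs of the Cdkn2b promoter, of 18 in its sequence, had no methylated read in any library. They were covered by 87 reads in uninduced cells, 66 in the undivided, 80 in the 1-division and 67 in the most-divided library. These depths allow levels of up to 3.45%, 4.55%, 3.75% and 4.48%. Only 2 of the 4, at 88957078 and 88957084, lie upstream of the start. Each had 11, 13, 11 and 11 reads in the same order. Summed over both, this allows up to 13.6%, 11.5%, 13.6% and 13.6%. These limits and the Wilson intervals below cover counting error only, since RRBS reads here carry no molecular identifiers and neighbouring CpGs share reads. The 9 listed CpGs of the Cdkn2b sequence with fewer reads were not all free of methylation: 2 of 36 reads were methylated in uninduced cells, 7 of 35 in the undivided, 0 of 44 in the 1-division and 3 of 33 in the most-divided library. In the undivided library these 7 lay at 88956982, 88957000 and 88957024, 42 to 84 bp upstream of the start, where 7 of 8 reads were methylated. Uninduced cells and the most-divided library had 1 read each there, methylated in both, and the 1-division library had none. The level between the start and the tested CpGs farther upstream is therefore not known from them. At the 24 listed but untested CpGs of the Arf sequence 2 of 112, 5 of 32, 2 of 69 and 3 of 69 reads were methylated in the same order.

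**Figure D1:**
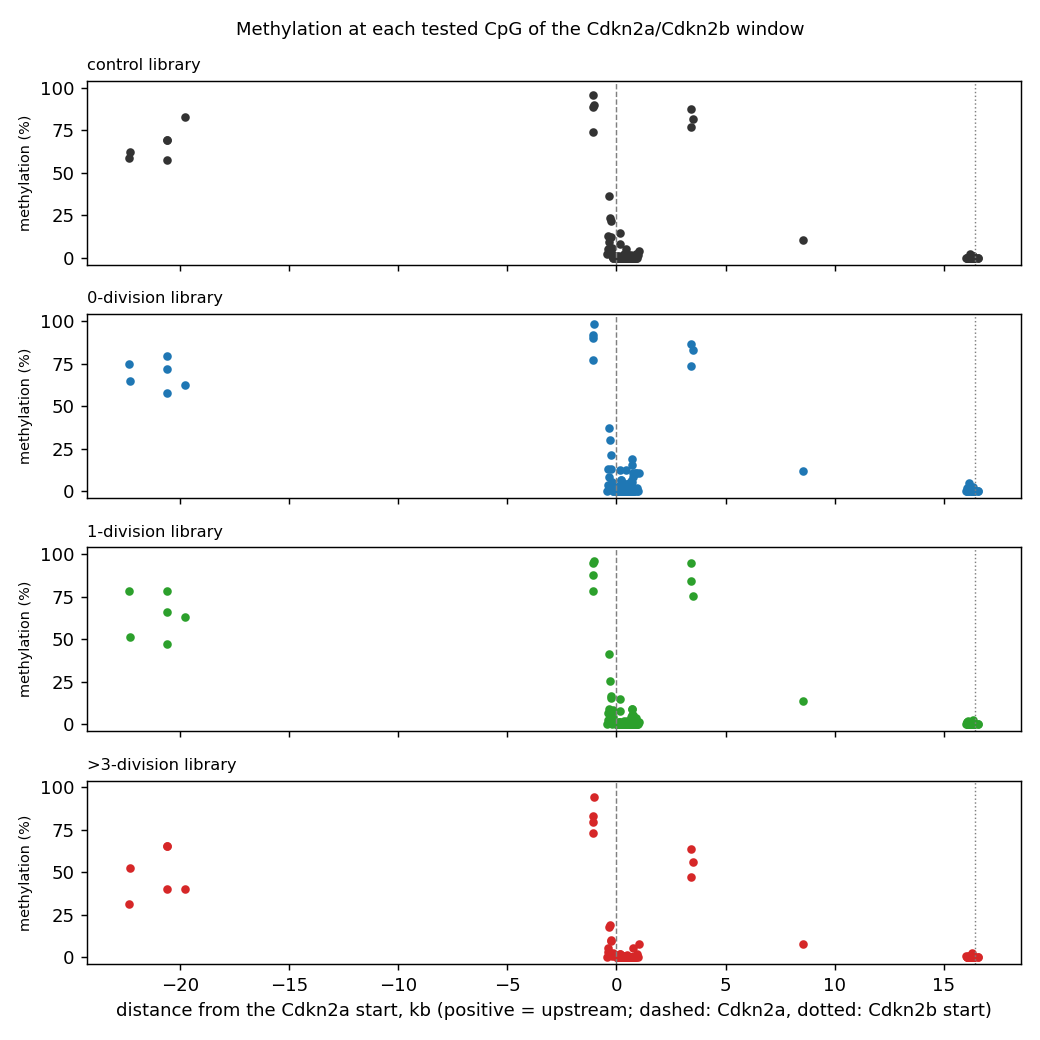
Methylation level in percent (vertical axis) of each of the 121 tested CpGs against its distance from the Cdkn2a (Arf) start in kb (horizontal axis, positive upstream), 1 panel per library; points are CpGs. Most CpGs at both starts lie under 5% in every panel, with more above it at the Arf start in the 0-division panel, and most of those far from a start are higher.

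Joining CpGs at most 100 bp apart gave 10 groups, of which 6 had at least 3 CpGs and are called clusters; these held 115 of the 121 CpGs. The clusters fell into 3 kinds: 2 unmethylated runs at the starts, 1 partly methylated run just downstream of the Arf start, and 3 short, mostly methylated clusters away from the starts. Over all 121 CpGs, 97 were under 5% in uninduced cells and 13 at 40% or more. The mean over the window was 9.88% in uninduced cells, 11.2% in the undivided, 10.1% in the 1-division and 7.55% in the most-divided library, where all tested CpGs of the genome averaged 42.4%, 42.7%, 42.5% and 38.8%. Most of the window's tested CpGs, 92 of 121, lay in the unmethylated runs. The tested CpGs had 8493, 7694, 8226 and 12497 reads in all, in the same order.

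The comparisons with control gave few calls. A cluster was called at an adjusted p under 0.05 (two-sided Fisher's exact test on summed reads, Benjamini-Hochberg over the genome) and a difference of at least 10 points, a single CpG at the same p and at least 20 points. In the undivided library 0 of 6 clusters and 0 of 121 CpGs were called, where 0.395% of all clusters were higher and 0.376% lower, and 0.0045% of CpGs were higher and 0.00631% lower. At an unadjusted p under 0.05 there were 2 of 6 clusters, both unmethylated runs, beside 15.5% of all clusters, and 1 of 121 CpGs beside 3.79% of all CpGs. The mean over the 121 CpGs was 1.37 points above control (95% interval for counting error 0.52 to 2.22), against 0.24 points over all CpGs and 0.79 points over autosomal CpG-dense CpGs. It was 0.71 points with a minimum of 20 reads and 0.89 points with reads pooled over CpGs. In the 1-division library there were again 0 and 0 calls, with backgrounds of 0.215% and 0.132% for clusters higher and lower, and 0.0022% and 0.00153% for CpGs. Here 0 clusters (10.1% of all clusters) and 3 CpGs (3.496% of all CpGs) had an unadjusted p under 0.05 in Fisher's exact test. The mean difference was 0.22 points (-0.55 to 0.99) and turned negative with a minimum of 5 reads (-0.33) and with pooled reads (-0.63).

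In the most-divided library 1 of 6 clusters was lower and none higher than control, where 11.0% of all clusters were lower and 0.577% higher. Of CpGs 1 of 121 was lower, where 3.05% of all CpGs were lower and 0.0865% higher. The window's counts were near or under the background, but most of the window could not be called lower. The 97 CpGs under 5% in uninduced cells could not fall by 20 points. Nor could the clusters at 0.958%, 0.219% and 9.31% in uninduced cells fall by 10 points. The counts of lower calls were therefore limited by the starting levels, and no conclusion is drawn from them. The mean difference was -2.33 points (-3.16 to -1.49), against -3.62 points over all CpGs and -0.72 points over autosomal CpG-dense CpGs. The median difference of the 6 clusters was -3.86 points and that of all clusters -1.28. With reads pooled over CpGs the window's difference was -6.13 points. Pooling weights each CpG by its depth, which changed with methylation level between these libraries, as given below. With each CpG at equal depth the mean difference was -2.42 points. Against the undivided library 1 cluster was lower (background 11.2% lower, 0.614% higher) and 0 CpGs were called (3.22% lower, 0.0888% higher), with 11 of 121 CpGs at an unadjusted p under 0.05, all lower, beside 12.6% of all CpGs. The 87 CpGs under 5% in the undivided library could likewise not be called lower against it. The mean difference was -3.70 points (-4.63 to -2.77), against -3.87 over all CpGs. These comparisons share libraries, so they are not independent of each other.

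The Arf run was the longest, with 67 tested CpGs from 17 bp downstream to 1029 bp upstream of the start (88940505 to 88941551). Only 0.455% of the 99566 clusters of the genome had as many CpGs. Its level, from summed reads, was 0.958% in uninduced cells (Wilson interval 0.714% to 1.28%, 4594 reads), 1.59% in the undivided library (1.25% to 2.01%, 4222 reads), 0.882% in the 1-division library (0.646% to 1.20%, 4422 reads) and 0.582% in the most-divided library (0.431% to 0.786%, 7214 reads). The Cdkn2b run held 25 tested CpGs from 30 to 392 bp downstream of its start (88956548 to 88956910), so it covers the beginning of the gene rather than the sequence before it. Its level was 0.219% of 1830 reads in uninduced cells, 0.833% of 1560 in the undivided, 0.323% of 1859 in the 1-division and 0.306% of 2616 in the most-divided library. No single CpG of the Cdkn2b run exceeded 4.48% in any library. In the Arf run 13 CpGs exceeded 5% in the undivided library, against 2 in uninduced cells, 6 in the 1-division and 2 in the most-divided library. The highest was the CpG at 88941215, 693 bp upstream, with 3 of 16 reads methylated in the undivided library (18.75%) and 0 of 22 in uninduced cells. Such levels were usual for CpG-dense sequence: the median autosomal cluster with at least 12 listed CpGs within 100 bp was at 0.926% in uninduced cells and 0.552% in the most-divided library.

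Within the unmethylated runs the undivided library held the most methylated reads. Of the 92 CpGs of both runs, 49 had no methylated read in the undivided library, against 71 in uninduced cells, 70 in the 1-division and 70 in the most-divided library. With each CpG thinned to its lowest depth of the 4 libraries the numbers were 52, 74, 76 and 75. The summed level of both runs was 1.38% in the undivided library (1.11% to 1.72%) and 0.747% in uninduced cells (0.564% to 0.989%). These intervals did not overlap, but they are too narrow because neighbouring CpGs share reads. Autosomal CpG-dense sequence at large differed the same way, with 44.4% of its CpGs at 0% in the undivided library and 58.6% in uninduced cells. The differences of 0.63 points in the Arf run (Fisher's exact test, adjusted p = 0.129) and 0.61 points in the Cdkn2b run (adjusted p = 0.159) missed the threshold. Averaging the levels of its CpGs instead of summing reads, the Arf run differed by 1.91 points (means of 2.72% and 0.81%). With a minimum of 20 reads it split into 4 clusters that differed by -0.30 to 0.82 points. Between the undivided and the most-divided library the Arf run differed by -1.005 points, which passed the p threshold (adjusted p = 3.77e-06, Fisher's exact test) but not the 10 points, and the Cdkn2b run by -0.53 points (adjusted p = 0.0773).

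A pair of CpGs stood out inside the Arf promoter. The CpG 148 bp upstream of the start was methylated in 16 of 108 reads in uninduced cells, 3 of 88 in the undivided, 8 of 101 in the 1-division and 4 of 204 in the most-divided library. The CpG 182 bp upstream was methylated in 5 of 62, 4 of 33, 6 of 40 and 3 of 163 reads in the same order. They were the only CpGs of the run above 5% in uninduced cells, at 14.8% and 8.06%, and in the most-divided library both were under 2%. Both lie in CCGG, the site that MspI cuts. The sequence has 3 such sites (CCGG reads the same on both strands), and 21.1% of all promoter sequences have at least 3. The CpG in the third, 16 bp upstream, had 0 methylated of 135 reads in uninduced cells. The difference of the first CpG between most-divided and control was -12.9 points (Fisher's exact test, adjusted p = 0.00153 over all CpGs), below the 20 points asked of a call.

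**Figure D2:**
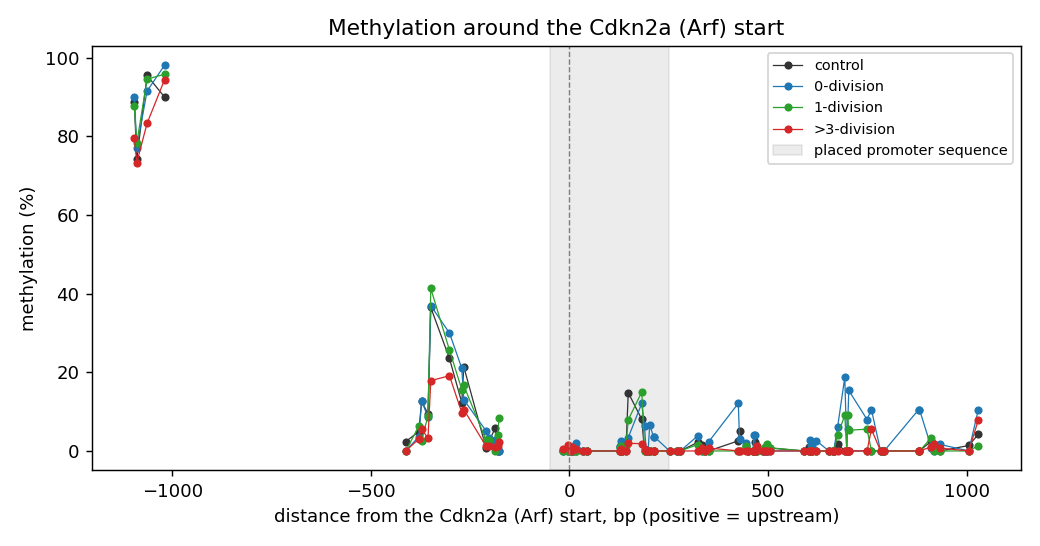
Methylation level in percent of each tested CpG against its distance from the Cdkn2a (Arf) start in bp (positive upstream), with lines joining CpGs of a cluster and colours for the 4 libraries; shading marks the placed promoter sequence. Most levels are under 5% from the start upwards, with single CpGs up to 18.75%; they reach 41.3% at most in the run downstream and lie at 73.3% or more about 1 kb downstream.

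Downstream of the Arf start, inside the gene, methylation appeared at a short distance. The partly methylated run had 13 tested CpGs, 177 to 412 bp downstream (88940110 to 88940345). Its summed level was 9.31% in uninduced cells (7.73% to 11.2%), 10.8% in the undivided (8.99% to 12.8%), 10.1% in the 1-division (8.46% to 12.04%) and 5.995% in the most-divided library (5.07% to 7.08%). The last interval lay below the other three. The difference of -3.31 points from control passed the test (Fisher's exact test, adjusted p = 0.00569) but not the 10 points asked of a call, and with read counts divided by the overdispersion between control and 1-division the adjusted p was 0.0753. Across the 5501 clusters of the genome within 5 points of its control level the median difference was -1.83 points. From the undivided library the difference was -4.76 points (Fisher's exact test, adjusted p = 5.39e-05).

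The methylation of this run sat on a few CpGs rather than being even. The CpG 349 bp downstream was methylated in 23 of 63 reads in uninduced cells, 17 of 46 in the undivided, 31 of 75 in the 1-division and 27 of 151 in the most-divided library. It was the highest of the run in the first 3 libraries, at 36.5%, 37.0% and 41.3%, and stood at 17.9% in the most-divided library. The next CpG tested, 302 bp downstream, was at 23.5%, 30.0%, 25.7% and 19.1% in the same order. At the outermost tested CpG, 412 bp downstream, 1 of 42 control reads and no read of the other libraries was methylated. The level thus did not climb steadily with distance. Listed CpGs just past it had too few reads in the undivided library to be tested. At 425 bp 6 of 24, 2 of 8, 3 of 14 and 1 of 12 reads were methylated in the same order. At 437 bp it was 9 of 22, 3 of 5, 2 of 13 and 4 of 10. None of the run's tested CpGs was called in any comparison.

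About 1 kb into the gene the sequence was mostly methylated. The 4 CpGs from 1019 to 1095 bp downstream (88939427 to 88939503) had a summed level of 86.8% in uninduced cells, 88.7% in the undivided, 88.2% in the 1-division and 82.4% in the most-divided library, on 326, 265, 321 and 233 reads. The CpG at 88939433 was the lowest of the 4 in every library, between 73.3% and 78.3%. The difference of -4.41 points between most-divided and control had an adjusted p of 0.353 (Fisher's exact test), beside a median of -3.05 points over clusters of like control level. No difference at this cluster was detectable at this depth.

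The second start of Cdkn2a, that of p16Ink4a, was poorly covered, and no CpG near it reached 10 reads in all libraries. Its RefSeq sequence had 12 CpGs and could not be placed by the rule used for the others. In 1 place of the window at least 3 listed CpGs fell in it and all coincided; there 4 did, and that place lay 12427 bp downstream of the Arf sequence, the same distance as in RefSeq. At least 12 CpGs were held by 39.6% of promoter sequences of that length. The sequence is shown to set its 12 CpGs beside the 45 of the Arf start, with those 4 listed CpGs in capitals:
Cdkn2a, Ink4a start: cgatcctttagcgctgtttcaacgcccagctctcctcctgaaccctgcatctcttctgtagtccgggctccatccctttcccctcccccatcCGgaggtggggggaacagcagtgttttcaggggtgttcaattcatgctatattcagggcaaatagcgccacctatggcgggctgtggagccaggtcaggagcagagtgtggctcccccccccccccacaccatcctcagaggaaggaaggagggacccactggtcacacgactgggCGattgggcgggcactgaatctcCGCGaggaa

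The 20 CpGs listed around that place (88927755 to 88928252) lay from 340 bp downstream to 157 bp upstream of the Ink4a start. Most of their reads in each library fell at CpGs from 88927902 to 88927936, downstream of that start. The 4 listed CpGs in the printed sequence had at most 1 read each in any library. The 20 CpGs drew 24 reads in uninduced cells, 44 in the undivided, 38 in the 1-division and 152 in the most-divided library, summed over CpGs. Of these, 6, 2, 7 and 13 were methylated, which is 25% (Wilson interval 12% to 44.9%), 4.55% (1.26% to 15.1%), 18.4% (9.22% to 33.4%) and 8.55% (5.07% to 14.1%). A CpG had at most 4 reads in uninduced cells, and since neighbouring CpGs share reads these intervals are too narrow. With so few reads no test between libraries was made at the Ink4a start.

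Upstream of the Arf start, past the unmethylated run, lay the cluster that changed most. Its 3 CpGs were 3419 to 3501 bp upstream (88943941 to 88944023), between the 2 genes. The first was methylated in 56 of 73 reads in uninduced cells, 44 of 60 in the undivided, 48 of 57 in the 1-division and 17 of 36 in the most-divided library. The CpG next to it was methylated in 64 of 73, 52 of 60, 54 of 57 and 23 of 36 reads, and the outermost in 45 of 55, 43 of 52, 28 of 37 and 9 of 16. Each of the 3 was lowest in the most-divided library, while the order of the other libraries differed between them.

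Summed, this cluster stood at 82.1% in uninduced cells (76.2% to 86.8%), 80.8% in the undivided (74.3% to 86.0%), 86.1% in the 1-division (79.7% to 90.7%) and 55.7% in the most-divided library (45.3% to 65.6%). It fell by 26.4 points from control (adjusted p = 8.90e-05) and fell by 25.1 points from the undivided library (adjusted p = 0.000321, Fisher's exact test, Benjamini-Hochberg over all clusters). Clusters of like control level differed from control by a median of -3.62 points. Summed over its 3 CpGs, it had 88 reads in the most-divided library and 201 in uninduced cells, a ratio of 0.438. Clusters of like control level had a median ratio of 0.714. The part of this loss of reads in the lower level was not tested. Neighbouring CpGs share reads, so these sums count some reads more than once. The p-values of this cluster are therefore too small and its intervals too narrow. With both thinned to 88 reads the difference from control was -22.7 points (Fisher's exact test, adjusted p = 0.0236). With read counts divided by the overdispersion, Fisher's exact test gave an adjusted p of 0.00907 from control and 0.0193 from the undivided library. None of the 3 CpGs was called singly. With a minimum of 20 reads, or joining only CpGs within 50 bp, it no longer had 3 CpGs and was not tested.

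**Figure D3:**
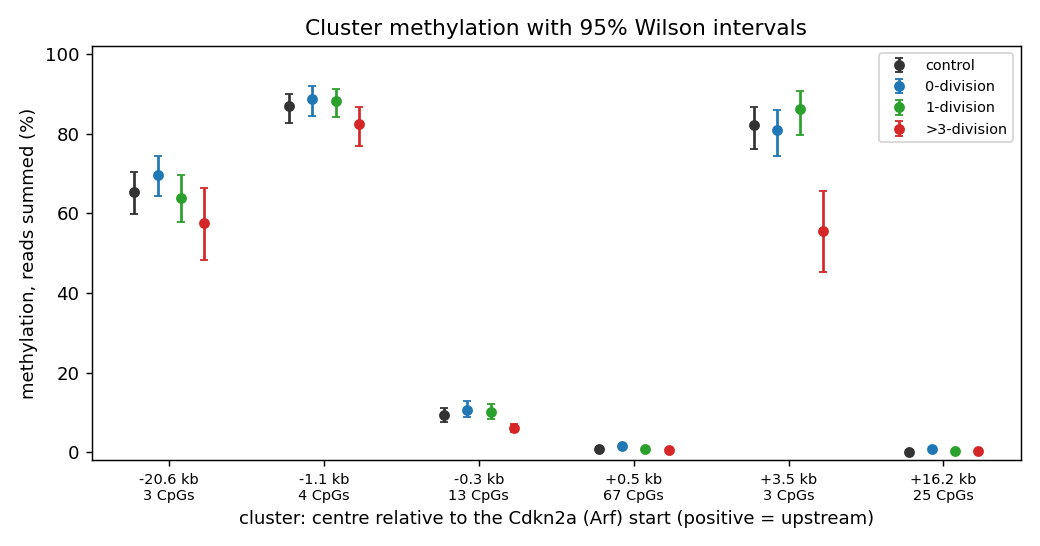
Summed methylation level in percent of the 6 clusters (points, 4 libraries in colour) with 95% Wilson intervals, ordered by distance of the cluster's centre from the Cdkn2a (Arf) start. The >3-division point stands apart at the cluster 3.5 kb upstream, at 55.7%.

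Between this cluster and Cdkn2b a lone CpG, 8526 bp upstream of the Arf start (88949048), was low in all libraries, with 2 of 19, 3 of 26, 3 of 22 and 1 of 13 reads methylated. The lowest and highest of these levels were 7.69% and 13.6%, which their counting error does not separate. The CpGs at 88957078 and 88957084, just upstream of the Cdkn2b start, are 2 of the 4 in its promoter sequence. They had no methylated read, on 11 to 13 reads each.

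Far downstream of the Arf start, near the end of Cdkn2a or past it (RefSeq gives the gene a length of 20147 bases in GRCm38.p6), methylation was intermediate. A cluster of 3 CpGs from 20592 to 20608 bp downstream (88919914 to 88919930) had levels of 65.4% in uninduced cells, 69.6% in the undivided, 63.9% in the 1-division and 57.5% in the most-divided library, on 312, 319, 249 and 113 reads. The first of the 3 was the lowest in every library, at 57.7%, 57.5%, 47.0% and 40.5%. The difference between most-divided and control was -7.86 points (Fisher's exact test, adjusted p = 0.335), beside a median of -6.71 points in clusters of like level. The difference from the undivided library was -12.1 points (Fisher's exact test, adjusted p = 0.0696). Its reads in the most-divided library were 0.362 times those in uninduced cells.

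The CpG at 88920759, 19763 bp downstream, was the only single CpG called in the window. It was methylated in 29 of 35 reads in uninduced cells, 15 of 24 in the undivided, 17 of 27 in the 1-division and 10 of 25 in the most-divided library, that is 82.9%, 62.5%, 63.0% and 40.0%. It fell by 42.9 points between control and most-divided (Fisher's exact test, adjusted p = 0.0284 over all CpGs), and the call was lost at equal depth (adjusted p = 0.191) and with overdispersion (adjusted p = 0.251). The pair at 88918212 and 88918235, more than 22 kb downstream, was too small for a cluster test. The first of the pair was at 58.6%, 75.0%, 78.1% and 31.6% in uninduced cells, undivided, 1-division and most-divided, and the other at 62.1%, 65.0%, 51.5% and 52.6%, on 19 to 40 reads.

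Read depth in the most-divided library moved with methylation across the window. At the 97 CpGs under 5% in uninduced cells its reads were a median of 1.51 times those of control, and at the 13 CpGs at 40% or more a median of 0.655 times, with 0 of 13 above control. In the 1-division library these medians were 0.967 and 0.798. The genome at large went the same way in the most-divided library. Clusters within 5 points of the control level of the Arf run had a median ratio of 1.65. Those within 5 points of the methylated cluster about 1 kb downstream of the Arf start had one of 0.722. Depth also varied within the unmethylated Arf run: 12 CpGs from 400 to 499 bp upstream of the start had a median ratio of 0.436, and 6 CpGs from 200 to 299 bp upstream one of 2.85, both at under 1% methylation in uninduced cells and the most-divided library.

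**Figure D4:**
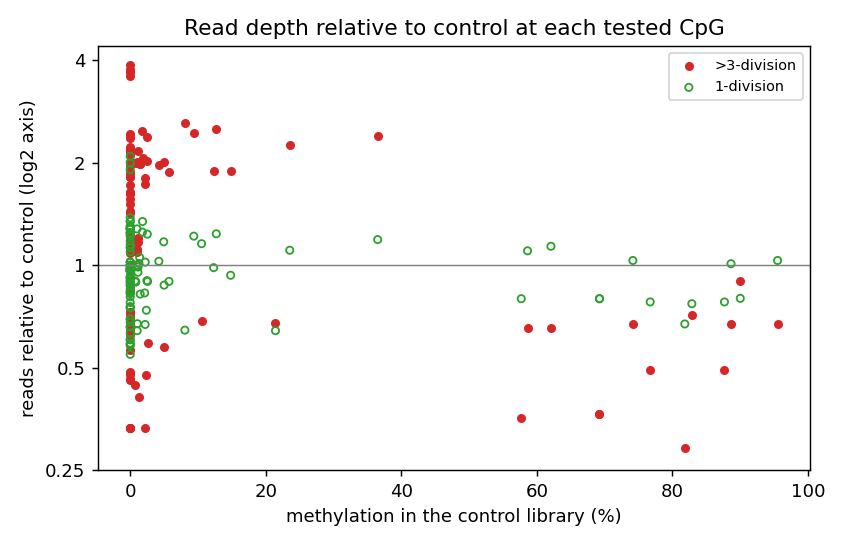
Reads at each tested CpG relative to control (vertical axis, log2 scale) against its methylation in control in percent, for the >3-division (filled) and 1-division (open) libraries. All 13 CpGs at 40% or more in control lie below 1 in the >3-division library.

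Promoters of other genes of the pathway were looked up in the same way, from a list of 18 genes and 2 neighbours. Cdkn1c, Ccnd1, Ccnd2, Rb1 and Kdm6b are named only. The other 15 genes had a sequence in the table, and 11 could be placed with at least 1 tested CpG. They were the inhibitors Cdkn1b, Cdkn2c and Cdkn2d, the kinases Cdk4 and Cdk6 that the Ink4 proteins block, E2f1, a transcription factor held by Rb, Mdm2, which p19Arf binds, the Polycomb genes Bmi1, Cbx7 and Ezh2, and the neighbour Mtap, a methionine salvage enzyme. Of their 138 tested CpGs 0 were called by Fisher's exact test in any comparison. None exceeded 11.1% in uninduced cells, so none could fall by the 20 points needed to be called lower than control. At an unadjusted p under 0.05 there were 3 in undivided against uninduced cells, 0 in 1-division against uninduced, 1 in most-divided against uninduced and 6 in most-divided against undivided cells, beside 3.79%, 3.496%, 11.3% and 12.6% of all CpGs. The shares of all CpGs called are those given above for each comparison. Cdkn1a, Trp53, Mdm4 and Dmrta1 were not placed. The 11 promoters were at most 2.20% methylated on average in uninduced cells, with a median of 0.654%, and at most 1.95% in the most-divided library, with a median of 0.241%. In the undivided library the median was 1.39% and the highest was Ezh2 at 14.3%, on a single CpG with 14 reads. The mean of Cdkn2c over 14 CpGs was 0.198% in uninduced cells, 5.37% in the undivided, 0.722% in the 1-division and 1.95% in the most-divided library. By summed reads 1 of 701, 21 of 768, 5 of 767 and 3 of 1359 were methylated in the same order. The highest CpG of Cdkn2c was at 30.8% in the undivided and 27.3% in the most-divided library. In the most-divided library that CpG alone made up the mean. The Arf promoter at 1.19% and the Cdkn2b promoter at 0% in uninduced cells lay within the range of the 11 others.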

How the data were processed

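The authors deposited, for each of 4 RRBS libraries, a table without header that gives 2 counts of reads at each CpG, methylated and unmethylated, in an order settled from the values. Per the labels' protocols, DNA was cut with MspI, bisulfite treated, and fragments of 40 to 220 bp were kept. The build is mm9, per the submitters' processing notes. Aligner, caller and whether positions count from 0: not given in the sources used here. Summed reads per library ran from 84606824 to 94775128, with a median of 58 to 61 reads at tested CpGs.

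Levels, clusters (gap 100 bp, at least 3 CpGs) and two-sided Fisher's exact tests were computed with Python 3.11.15, numpy 2.4.6 and numba 0.67.0, with Benjamini-Hochberg adjustment over 1045368 CpGs or 99566 clusters. A call needed an adjusted p under 0.05 and 20 points (CpG) or 10 points (cluster). P-values are too small, since CpGs of a read are not independent. The tests were checked on simulated data. By rule the text names each cluster of the window, each other CpG called in a comparison, the 5 other CpGs with the largest range, and both genes' promoters. Single CpGs inside clusters, Cdkn2c and Ezh2 were singled out after their values were seen. The overdispersion used as an alternative was that between control and the 1-division library.

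The planned placement of a promoter, at least 5 coinciding CpGs and no second place, was met at 574 places for Cdkn2a and 2 for Cdkn2b. After seeing this, the best place was taken where at least 10 CpGs coincided, at least 2 times the next best. No coordinate was converted between builds. The members and lists were chosen with earlier results of these data known.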

Additional observations from a re-analysis of the deposited data

How the results depend on the processing

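Alternatives were a minimum of 5 or 20 reads, equal depth, cluster gaps of 50 or 200 bp, overdispersion (1.31 for CpGs, 1.69 for clusters), equal weight per CpG, pooled reads, and leaving out CpGs of highest coverage. With reads pooled over CpGs, the window's difference from control reversed to -0.63 points in the 1-division library and was -6.13 points in the >3-division library. That from 0-division to >3-division was -7.02 points. Pooled values weight each CpG by its depth, which differed between libraries. At equal depth the mean differences of the >3-division library were -2.42 points from control and -3.65 points from 0-division. Clusters called between control and >3-division were 2 at 5 reads, 0 at 20 reads and 0 with a gap of 50 bp; between 0-division and >3-division they were 0 at 20 reads and 0 with a gap of 50 bp. In those settings the cluster at 88943941 had fewer than 3 CpGs. CpGs called between control and >3-division were 2 at 5 reads, 0 at equal depth and 0 with overdispersion, and between 0-division and >3-division 1 at 5 reads. The other 48 counts and means under an alternative kept their count or stayed within counting error, and the 128 values of single clusters kept their call. The causes were not tested. No paired analysis was possible because each group had 1 library. At the Ink4a start the depth allowed no test.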

Other observations

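Of the window's listed CpGs, 147 fell under 10 reads in at least 1 library, and their values are given here as descriptions. The CpG at 88940811, 289 bp upstream of the Arf start and chosen here after its values were seen, was methylated in 17 of 21 reads in uninduced cells, 1 of 9 in the undivided, 2 of 5 in the 1-division and 6 of 24 in the most-divided library. The CpG after it in the same run, at 88940817, had 0 of 21 methylated reads in uninduced cells. With a minimum of 5 reads the CpG at 88940811 was called lower in the most-divided library than in uninduced cells (25% against 81.0%, Fisher's exact test, adjusted p = 0.0125).

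Inside Cdkn2b, 15 CpGs from 88952717 to 88953939 were intermediate, at 51.6% of 95 reads in uninduced cells, 38.9% of 36 in the undivided, 57.6% of 85 in the 1-division and 51.1% of 92 in the most-divided library. The Wilson intervals of these levels overlapped. Near the end of Cdkn2a, 19 CpGs from 88919640 to 88921033 were at 62.5% of 251 reads in uninduced cells, 71.9% of 196 in the undivided, 64.0% of 272 in the 1-division and 64.7% of 85 in the most-divided library. In the same stretch, the 7 CpGs from 88920633 to 88920762 that reached 5 reads in all libraries, the called CpG at 88920759 among them, formed a cluster at 79.5% in uninduced cells and 61.4% in the most-divided library (Fisher's exact test, adjusted p = 0.0209). This result is not separate from the call of that CpG, and the cluster was not tested without it. Its other CpGs went both ways: 88920633 from 12 of 20 methylated reads to 1 of 8, and 88920742 from 23 of 26 to 8 of 8. Farther out, 6 CpGs from 88918296 to 88918443 were at 42.1% of 216 reads in uninduced cells, 50.9% of 169 in the undivided, 55.6% of 241 in the 1-division and 31.0% of 29 in the most-divided library.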
